A study of Mus musculus with 9 samples.

Results

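The genes described here write, hold or erase methylation of histone H3 at lysine 27 (H3K27) and were followed in podocytes, the epithelial cells that wrap the capillaries of the kidney glomerulus, after injury with an agent abbreviated ADR. They are the subunits of Polycomb repressive complex 2 (PRC2) Ezh1, Ezh2, Eed, Suz12, Rbbp4, Rbbp7, Jarid2 and Phf1 and the H3K27 demethylases Kdm6a and Kdm6b. They were taken by symbol from a gene table, in which all 10 were present among 23309 symbols, and 9 of the 10 passed the filter on low values (1 FPKM or more in 3 or more of the 9 libraries) that left 9788 genes for testing. Suz12 did not pass.

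The podocytes came from mice labelled wildtype, aged 7 to 8 weeks, that bore the mTmG reporter together with a podocyte Cre transgene. Recombination switches this reporter from a red to a green fluorescent protein (GFP), so a cell is counted as a podocyte because it, or a cell it descends from, once expressed Cre. Every group carried the reporter and Cre. The groups were 3 libraries from mice given PBS, 3 from mice 9 days after ADR and 3 from mice 14 days after ADR, all made from total RNA of GFP-positive cells after removal of ribosomal RNA. Whether each library stands for a different animal is not stated in the labels, so the p-values speak only of the spread among these 9 libraries.

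PRC2 places methyl groups on H3K27, and regions that carry the trimethyl mark are kept silent. Ezh2 and Ezh1 are its alternative catalytic subunits. Ezh2 is typical of dividing cells and Ezh1 of cells that have left the cell cycle, as mature podocytes have. Eed binds the finished mark and stimulates the enzyme, Suz12 holds the complex together, and Rbbp4 and Rbbp7 are closely related histone-binding proteins that also serve in other chromatin complexes. Jarid2 and Phf1 are accessory subunits of different PRC2 subtypes that steer the complex to chromatin. Kdm6a (UTX) and Kdm6b (JMJD3) remove the mark.

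Sequence upstream of the start site is shown for the catalytic pair, which the study's cells use at very different levels, and for the 3 members that changed on day 14. The bases are the 250 before the annotated start in RefSeq (GRCm38.p6), read 5′ to 3′ on the gene's strand: Ezh2 at chr6:47595031-47595280 on the minus strand, Ezh1 at chr11:101226464-101226713 on the minus strand, Eed at chr7:89980977-89981226 on the minus strand, Rbbp7 at chrX:162760122-162760371 on the plus strand and Phf1 at chr17:26932877-26933126 on the plus strand. Capitals mark exact matches on either strand to the CCAAT box (CCAAT), the NRF1 motif (GCGCN followed by TGCGC), the GC box (GGGCGG) and the E2F motif (TTTGGCGC or TTTCCCGC).
Ezh2: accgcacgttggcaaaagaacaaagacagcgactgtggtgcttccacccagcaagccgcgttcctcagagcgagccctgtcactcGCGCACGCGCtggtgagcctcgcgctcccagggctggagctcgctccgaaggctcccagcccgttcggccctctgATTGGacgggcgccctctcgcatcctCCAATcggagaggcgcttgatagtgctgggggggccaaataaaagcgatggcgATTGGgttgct
Ezh1: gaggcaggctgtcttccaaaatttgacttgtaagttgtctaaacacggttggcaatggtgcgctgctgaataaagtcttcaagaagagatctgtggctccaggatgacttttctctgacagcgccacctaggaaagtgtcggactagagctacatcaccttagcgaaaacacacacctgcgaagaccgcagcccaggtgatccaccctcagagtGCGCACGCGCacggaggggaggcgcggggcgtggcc
Eed: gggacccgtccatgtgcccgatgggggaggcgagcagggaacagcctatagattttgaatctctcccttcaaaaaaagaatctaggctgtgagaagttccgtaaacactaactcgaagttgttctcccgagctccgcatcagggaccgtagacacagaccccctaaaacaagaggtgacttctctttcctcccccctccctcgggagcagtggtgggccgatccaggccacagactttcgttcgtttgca
Rbbp7: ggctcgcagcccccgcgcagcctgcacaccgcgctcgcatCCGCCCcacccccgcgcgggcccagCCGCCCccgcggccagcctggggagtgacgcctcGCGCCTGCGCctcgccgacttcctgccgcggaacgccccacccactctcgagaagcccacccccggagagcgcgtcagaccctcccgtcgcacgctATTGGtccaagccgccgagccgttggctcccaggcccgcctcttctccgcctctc
Phf1: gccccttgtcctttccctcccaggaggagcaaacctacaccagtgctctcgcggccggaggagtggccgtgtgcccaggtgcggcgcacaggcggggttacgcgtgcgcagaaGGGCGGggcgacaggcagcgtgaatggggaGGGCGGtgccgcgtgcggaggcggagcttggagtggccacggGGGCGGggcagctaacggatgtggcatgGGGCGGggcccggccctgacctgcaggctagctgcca

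These 5 sequences differed in what they held. Ezh2 had CCAAT boxes that began at -90, -64 and -11 from the start, an NRF1 match at -165, and, past the stretch printed, an E2F match that began at base 4 of the transcript. Ezh1 had 1 NRF1 match at -36 and none of the other motifs. Phf1 held 4 GC boxes and no CCAAT box. Rbbp7 held GC boxes, an NRF1 match at -151 and a CCAAT box at -55, and no motif was matched in the 250 bases of Eed. A further CCAAT box of Rbbp7 began at -1 and ran past the stretch printed. Within its transcript Rbbp7 had an NRF1 match at base 19 and GC boxes at bases 11 and 39. Eed had a CCAAT box at base 26 of the transcript. Over all 32851 RefSeq windows of the same kind, which run 250 bases before to 50 after the start, 1.56% held the E2F motif, 37.4% the CCAAT box, 4.60% the NRF1 motif and 35.7% the GC box. Such matches describe letters and are not evidence of binding. Windows were found for 9 of the 10 genes.

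Levels are given in FPKM, a count of sequenced fragments divided by transcript length and library size, so levels of different genes can be compared. With PBS the order was Rbbp4 (55.1 ± 4.14), Rbbp7 (46.9 ± 4.49), Phf1 (24.1 ± 3.95), Ezh1 (17.8 ± 3.09), Eed (10.4 ± 1.08), Jarid2 (9.37 ± 2.23), Kdm6b (4.50 ± 1.52), Kdm6a (3.20 ± 0.295), Ezh2 (0.686 ± 0.244) and Suz12 (0.446 ± 0.0944 FPKM; SD, n = 3 for each). Of the neighbours in that order, Phf1 and Ezh1, Eed and Jarid2, Kdm6b and Kdm6a, and Ezh2 and Suz12 overlapped in their libraries. The histone-binding subunits thus stood highest and Ezh2 and Suz12 lowest in uninjured podocytes. On day 9 Rbbp4 and Rbbp7 overlapped, Kdm6a stood above Kdm6b without overlap, and Kdm6b, Ezh2 and Suz12 each overlapped the next. On day 14 Rbbp7, Rbbp4 and Eed stood above the rest, the 6 genes from Ezh1 down to Kdm6b each overlapped their neighbour, and Suz12 was below all others.

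**Figure D1:**
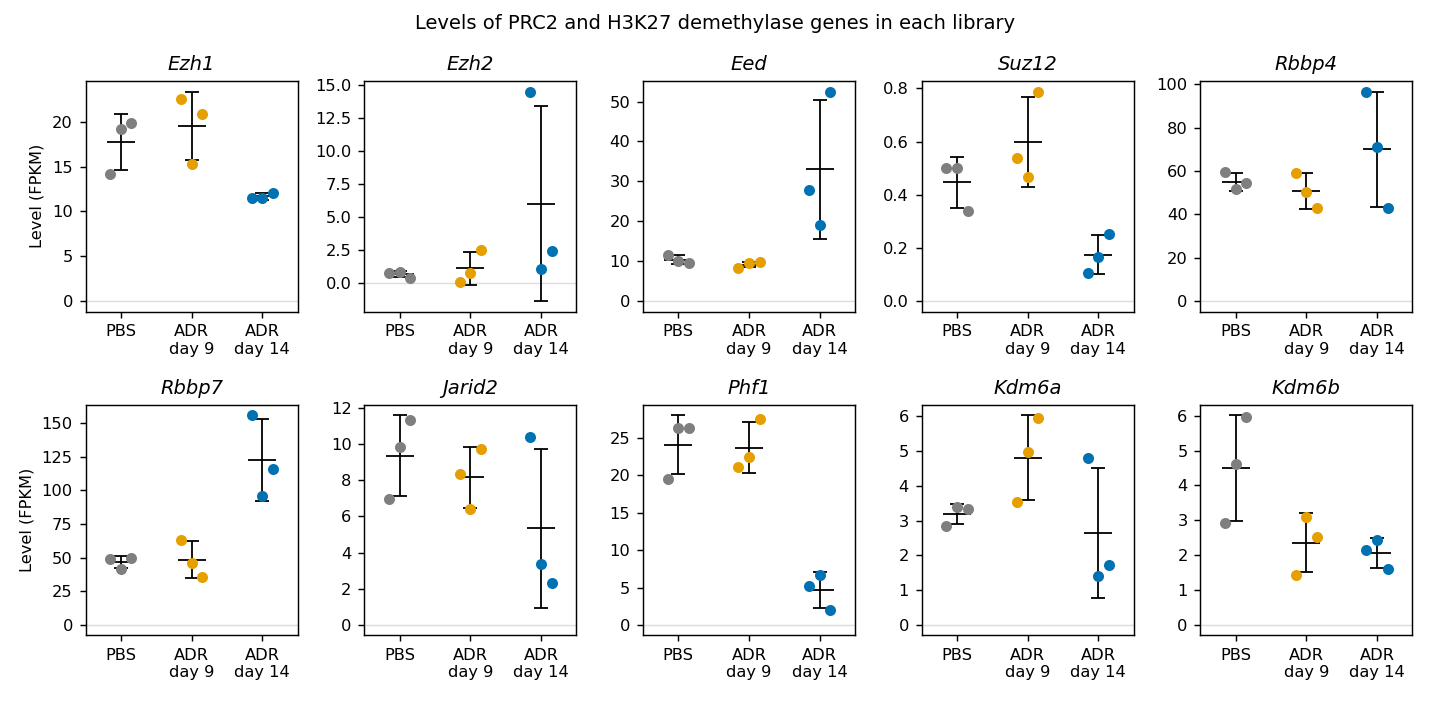
Level in FPKM (vertical axis, linear, a separate scale for each gene) of the 10 PRC2 and H3K27 demethylase genes in PBS, ADR day 9 and ADR day 14 podocytes. Points are libraries, horizontal lines means and bars SD (n = 3), and Eed and Rbbp7 stand higher and Phf1 lower in every day 14 library than in any other.

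Several facts of the libraries bear on what follows. Column totals ran from 570449 to 721388 FPKM, and the estimated depth relative to PBS replicate 2 was 1.08 to 1.09 in the other PBS libraries, 0.785 to 0.889 on day 9 and 0.240 to 0.570 on day 14. Podocyte markers were present in every group, with 16 markers summing to 5027 to 8610 FPKM with PBS, 6966 to 11417 FPKM on day 9 and 1492 to 2443 FPKM on day 14. Day 9 replicate 3 and day 14 replicate 1 stood apart. All 12 endothelial markers, defined as Emcn, Kdr, Pecam1 and their like, exceeded 4 times their highest PBS value in both, summing to 3304 FPKM in day 9 replicate 3 and 799 FPKM in day 14 replicate 1, against 1.26 to 28.8 FPKM elsewhere. In day 14 replicate 1 the 12 distal tubule, loop and duct markers summed to 12623 FPKM, the 12 proximal tubule markers to 3243 FPKM and the 14 leukocyte markers to 2260 FPKM. In day 9 replicate 3 the leukocyte markers summed to 1425 FPKM, the distal tubule, loop and duct markers to 595 FPKM and the 7 red cell markers to 248 FPKM. The red cell markers also reached 548 FPKM in day 9 replicate 1. Y-linked transcripts were present in the PBS libraries, day 9 replicate 1 and day 14 replicate 2 and near 0 in the other 4 libraries, so no PBS library lacked them. In bulk samples, fewer cells of a type and less RNA per cell cannot be told apart.

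On day 14 after ADR, the shared subunits Eed and Rbbp7 rose and the accessory subunit Phf1 fell relative to PBS. These 3 of the 9 tested genes (33.3%) passed limma's test at an adjusted p under 0.05, where 17.1% of all 9788 tested genes passed. Higher calls made up 6.32% of all genes and lower calls 10.7%. Of the 9 tested genes, 6 (66.7%) had day 14 libraries that did not overlap the PBS libraries, against 39.4% of all tested genes (15.6% higher and 23.8% lower). These were Ezh2, Eed and Rbbp7 above PBS and Ezh1, Phf1 and Kdm6b below it. The median change of the 9 genes was -0.17 on the log2(FPKM + 1) scale, with 4 above and 5 below the median of all genes, which is 0 on the scale used here. From each log2 change printed here, the median over all tested genes in that comparison has been subtracted. That median was 0.04 for day 9 against PBS. For day 14 it was -0.15 against PBS, and -0.22 against day 9. The tests themselves used the values as deposited.

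Eed had 27.8, 19 and 52.5 FPKM in day 14 podocytes, against 11.6, 10.1 and 9.5 FPKM in PBS podocytes. Each day 14 library lay above every PBS library, and the day 14 libraries were spread far more widely. The mean was 3.18-fold that of PBS, with a log2 change of 1.61 ± 0.34 (SE; limma, adjusted p = 0.0251). Rbbp7 had 156, 95.6 and 116 FPKM in day 14 podocytes, against 49.1, 41.7 and 49.8 FPKM in PBS podocytes. The groups did not overlap, and the lowest day 14 library was still well above the highest with PBS. Its mean was 2.61-fold that of PBS, with a log2 change of 1.49 ± 0.27 (limma, adjusted p = 0.0175).

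Phf1, whose protein reads methylated H3K36 through its Tudor domain and recruits PRC2, had 5.23, 6.69 and 1.98 FPKM in day 14 podocytes, against 19.5, 26.4 and 26.4 FPKM in PBS podocytes. The groups were far apart. The mean was 5.20-fold lower than with PBS, a log2 change of -2.10 ± 0.36 (limma, adjusted p = 0.0106).

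Only 1 day 14 library could be set against PBS among libraries with Y-linked transcripts, and no PBS library lacked them. That library, day 14 replicate 2, was above every PBS library for Eed and Rbbp7 and below every PBS library for Phf1. Since the groups did not overlap for these genes, that position was fixed in advance. With a term for these transcripts in the fit, no gene of 9788 passed in day 14 against PBS (limma; 2411 at an unadjusted p under 0.05), and the log2 changes were 1.27 for Eed (adjusted p = 0.139), 1.57 for Rbbp7 (adjusted p = 0.0814) and -1.86 for Phf1 (adjusted p = 0.0699). Without day 9 replicate 3 and day 14 replicate 1, the libraries marked by other kidney cells, the log2 changes were 1.69 for Eed (adjusted p = 0.0360), 1.32 for Rbbp7 (adjusted p = 0.0177) and -2.21 for Phf1 (adjusted p = 0.0144). The calls also rested on the controls, since without PBS replicate 2 or PBS replicate 3 none of the 3 passed (adjusted p of 0.104 and 0.0846 for Eed, 0.0898 and 0.0591 for Rbbp7, 0.0664 and 0.0523 for Phf1), and Eed also missed the threshold without PBS replicate 1 (adjusted p = 0.0501). With only the groups compared in the fit, Eed had an adjusted p of 0.0714.

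The 2 genes that rose had short transcripts. The longest annotated transcripts of Eed and Rbbp7, at 2067 and 2244 bases, were the shortest of the 10 genes and below the median of 3178 bases over tested genes, while Phf1 had 3142 bases. The GC content of these transcripts was 47.8% for Eed, 44.7% for Rbbp7 and 58.6% for Phf1, against a median of 49.6% over tested genes. After a trend on length and GC content was removed from each library, Phf1 passed in day 14 against PBS, and Eed and Rbbp7 had log2 changes of 1.2 (adjusted p = 0.0663) and 1.09 (adjusted p = 0.0555). Phf1 and Rbbp7 overlap the protein-coding genes Cuta and Txlng on the opposite strand. Eed overlaps the processed transcript E230029C05Rik on the opposite strand, whose level is not given here. The use of strand in counting is not given in the sources used here. Cuta had a log2 change of 0.13 ± 0.30 (limma, adjusted p = 0.972) and Txlng one of -0.08 ± 0.32 (adjusted p = 0.641) on day 14 against PBS. Reads of Rbbp4 and Rbbp7, of Ezh1 and Ezh2, and of Kdm6a and Uty could also be split between related copies, and how reads with several matches were counted is not given there either.

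**Figure D2:**
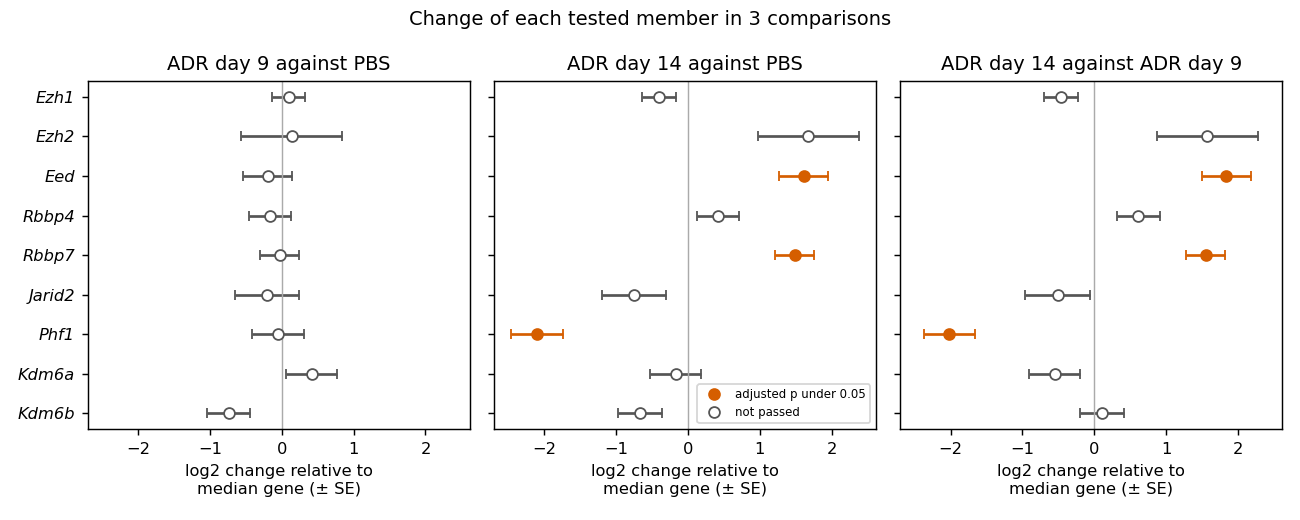
Log2 change of each tested gene after subtraction of the median over all genes (horizontal axis, ± SE) on day 9 against PBS, day 14 against PBS and day 14 against day 9. Filled points passed limma's test at an adjusted p under 0.05: none on day 9, and Eed, Rbbp7 and Phf1 in both comparisons of day 14.

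Of the catalytic subunits, neither passed the test on day 14 although neither overlapped PBS. Ezh1 had 11.4, 11.5 and 12.1 FPKM in day 14 podocytes, against 14.2, 19.2 and 19.9 FPKM in PBS podocytes. Its day 14 libraries lay within a narrow band below all PBS libraries (log2 change -0.41 ± 0.23, limma, adjusted p = 0.135). Ezh2 had 14.5, 1.09 and 2.46 FPKM in day 14 podocytes, against 0.777, 0.871 and 0.409 FPKM in PBS podocytes. Every day 14 library exceeded every PBS library, but replicate 1 alone held most of the mean (log2 change 1.67 ± 0.70, adjusted p = 0.162).

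The highest Ezh2 levels were in day 14 replicate 1 and day 9 replicate 3, both marked by other kidney cells, with day 14 replicate 3 just below. Of 21 cell cycle genes, 12 in day 14 replicate 1 and 11 in day 9 replicate 3 exceeded 4 times their highest PBS value and 1 FPKM, against 0 in every other library, and in both libraries none of the 21 was at 0. Ccnb2, a mitotic cyclin, had 125 FPKM in day 14 replicate 1 and 28.2 FPKM in day 9 replicate 3, against 0.331 to 1.39 FPKM in the other libraries. Day 14 replicates 2 and 3 had 5 of the 21 genes at 0 each, day 9 replicates 1 and 2 had 3 and 4, and the PBS libraries 1 to 3. The 21 genes summed to 730, 802 and 735 FPKM on day 14. Their sums were 423, 469 and 750 FPKM on day 9 and 398 to 470 FPKM with PBS. Pcna alone averaged 600 FPKM on day 14, 439 FPKM on day 9 and 384 FPKM with PBS. Without both marked libraries the log2 change of Ezh2 on day 14 against PBS was 0.85 (limma, adjusted p = 0.157). The part of other cells or of dividing cells in the Ezh2 level was not tested.

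The balance between the catalytic genes can be read within a library. Ezh2 made up 55.9, 8.63 and 16.9% of the summed Ezh1 and Ezh2 level in day 14 podocytes, against 5.18, 4.35 and 2.01% in PBS podocytes. All 3 day 14 shares lay above all PBS shares. As log2(FPKM + 1) of Ezh1 minus that of Ezh2, the log2 ratio averaged 1.39 ± 1.52 on day 14 and 3.47 ± 0.40 with PBS (SD, n = 3 each), a difference of -2.08 with an exact two-sided permutation p of 0.1, the smallest that 3 against 3 can give. Without both marked libraries the difference was -1.22. Since Ezh2 was under 1 FPKM in PBS podocytes, the added 1 sets much of this value, and with 0.1 added in its place the difference was -2.81 (exact permutation p = 0.1). The summed level of the pair was 26, 12.6 and 14.5 FPKM on day 14 and 15, 20.0 and 20.3 FPKM with PBS, so the groups overlapped in the total.

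**Figure D3:**
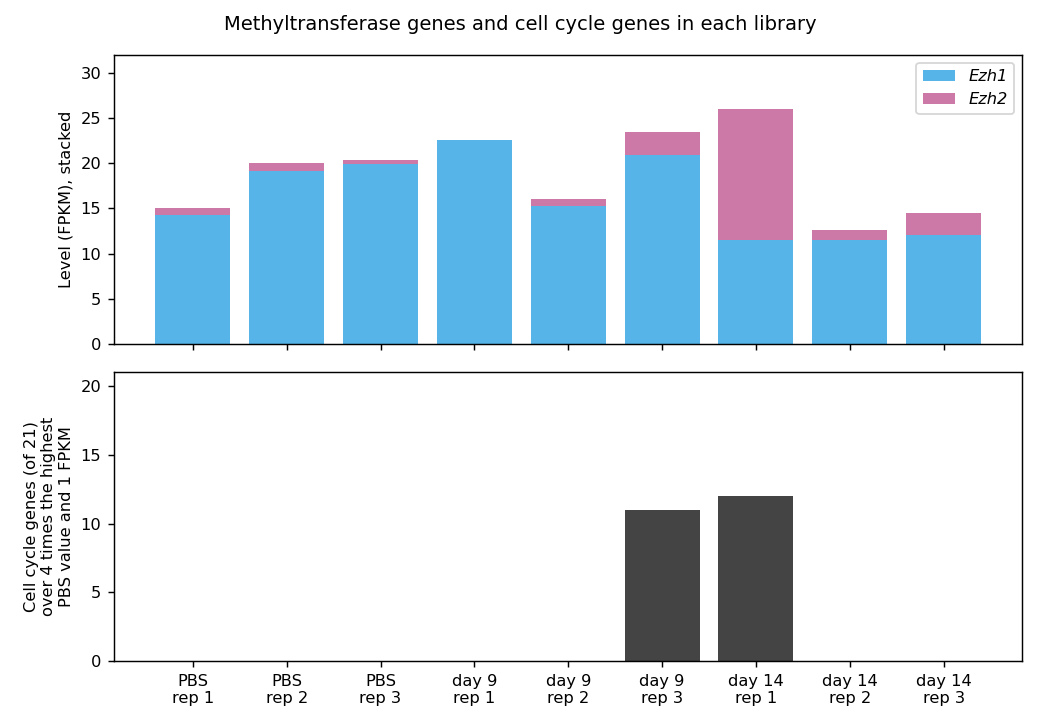
Top: stacked levels of Ezh1 and Ezh2 (FPKM) in each of the 9 libraries. Bottom: number of 21 cell cycle genes above 4 times their highest PBS value and 1 FPKM, which was 11 in day 9 replicate 3, 12 in day 14 replicate 1 and 0 elsewhere.

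Suz12 had the lowest mean of the 10 genes in every group. It had 0.106, 0.166 and 0.254 FPKM in day 14 podocytes, against 0.501, 0.501 and 0.337 FPKM in PBS podocytes. The day 14 libraries were all below the PBS libraries and also below the day 9 libraries at 0.540, 0.468 and 0.788 FPKM, but all 9 values were under the 1 FPKM of the filter, so they are a description without a test. Eed thus stood 261, 114 and 207 times above Suz12 in the day 14 libraries and 23.1, 20.1 and 28.2 times above it in the PBS libraries. These ratios divide by values under the filter with nothing added, on day 14 in the libraries of lowest depth. Their size is therefore uncertain.

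Rbbp4, the companion of Rbbp7, had 96.2, 70.9 and 43.2 FPKM in day 14 podocytes, against 59.6, 51.5 and 54.3 FPKM in PBS podocytes. The groups overlapped, since day 14 replicate 3 was below every PBS library (log2 change 0.42 ± 0.30, limma, adjusted p = 0.547). Within libraries, the ratio of Rbbp7 to Rbbp4 was 1.62, 1.35 and 2.68 on day 14, against 0.824, 0.809 and 0.917 with PBS. Rbbp7 was therefore the higher of the pair in each day 14 library and the lower in each PBS library. A test of that ratio was not made.

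Jarid2, which bridges PRC2 to nucleosomes and is itself methylated by it, had 10.4, 3.36 and 2.29 FPKM in day 14 podocytes, against 6.95, 9.83 and 11.3 FPKM in PBS podocytes. Replicates 2 and 3 were below all PBS libraries, while replicate 1 was among them (log2 change -0.75 ± 0.45, limma, adjusted p = 0.192). Without day 14 replicate 1 the log2 change was -1.26 with an adjusted p of 0.0180, and without both marked libraries it was -1.26 with an adjusted p of 0.0183. Replicate 1 was the library with markers of tubule, endothelial and blood cells, whose part in the Jarid2 level was not tested.

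The demethylases were low throughout. Kdm6b had 2.15, 2.43 and 1.61 FPKM in day 14 podocytes, against 2.93, 4.60 and 5.96 FPKM in PBS podocytes. The groups did not overlap, and the test was missed (log2 change -0.67 ± 0.30, limma, adjusted p = 0.0968). Kdm6a had 4.80, 1.40 and 1.73 FPKM in day 14 podocytes, against 2.86, 3.40 and 3.34 FPKM in PBS podocytes. Here replicate 1 was above and replicates 2 and 3 were below all PBS libraries (log2 change -0.17 ± 0.36, adjusted p = 0.559).

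The summed demethylases were also set against the summed methyltransferases in each library. With 1 added to each sum, the log2 ratio of Kdm6a and Kdm6b together to Ezh1 and Ezh2 together was -1.76, -1.49 and -1.84 in day 14 podocytes, against -1.24, -1.22 and -1.05 in PBS podocytes. The groups did not overlap. The difference was -0.53, with an exact two-sided permutation p of 0.1, which is the smallest possible. The means were -1.70 ± 0.18 on day 14 and -1.17 ± 0.10 with PBS (SD, n = 3 each). In day 9 podocytes the same ratio was -1.98, -0.91 and -1.36, which overlapped both other groups. Day 14 differed from day 9 by -0.28 (exact permutation p = 0.6), and day 9 from PBS by -0.25 (exact permutation p = 0.7).

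On day 9 after ADR, none of the 9 tested genes differed from PBS by the test. No gene of the 9788 passed (limma, 0% called), while 304 had an unadjusted p under 0.05, among them 1 of the 9, Kdm6b. Only Kdm6a had day 9 libraries that did not overlap PBS, which is 11.1% of the 9, against 13.4% of all tested genes (6.77% higher and 6.63% lower). The median change of the 9 was -0.05, with 3 above and 6 below the median gene. Changes other than those of Kdm6a and Kdm6b lay between -0.21 for Jarid2 and 0.14 for Ezh2.

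Ezh1 had 22.5, 15.3 and 20.9 FPKM in day 9 podocytes, against 14.2, 19.2 and 19.9 FPKM in PBS podocytes. The groups overlapped, as they did for Phf1, Eed, Rbbp4, Rbbp7 and Jarid2. Ezh2 had 0.0727, 0.787 and 2.49 FPKM on day 9, against the PBS range of 0.409 to 0.871 FPKM. Its day 9 libraries spread to both sides of PBS, and the highest was replicate 3, which held the endothelial markers and the cell cycle genes. With 1 added to each FPKM, the log2 ratio of Ezh1 to Ezh2 averaged 3.43 ± 0.93 on day 9 and 3.47 ± 0.40 with PBS, a difference of -0.04 (exact two-sided permutation p = 1). With 0.1 added instead the difference had the other sign, at 0.18 (exact permutation p = 0.9).

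Kdm6b had 1.44, 3.11 and 2.53 FPKM in day 9 podocytes, against 2.93, 4.60 and 5.96 FPKM in PBS podocytes. Replicates 1 and 3 lay below all PBS libraries and replicate 2 among them (log2 change -0.74 ± 0.30, limma, unadjusted p = 0.0468, adjusted p = 1). Kdm6a had 3.53, 4.98 and 5.94 FPKM in day 9 podocytes, against 2.86, 3.40 and 3.34 FPKM in PBS podocytes, a log2 change of 0.42 ± 0.36 (adjusted p = 1). All day 9 libraries were higher, replicate 1 by little. Kdm6a made up 71.0, 61.6 and 70.1% of the summed demethylase level on day 9 and 49.4, 42.5 and 35.9% with PBS.

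Kdm6a lies on the X chromosome and escapes X inactivation, and Uty is its Y-linked paralog, so its level was set beside the sex-linked transcripts. Uty had 2.04, 2.95 and 3.72 FPKM in PBS podocytes, 3.68, 0.0390 and 0 FPKM in day 9 podocytes and 0, 1.73 and 0 FPKM in day 14 podocytes. Xist, the RNA that coats the inactive X chromosome, had 0.0718, 0.0751 and 0.139 FPKM with PBS, 0.0362, 2.15 and 2.12 FPKM on day 9 and 0.986, 0.0941 and 0.897 FPKM on day 14. The day 9 libraries with the higher Kdm6a, replicates 2 and 3, were those with Xist and almost no Uty. Day 9 replicate 1, with Uty and little Xist, also lay above every PBS library for Kdm6a, at 3.53 FPKM. On day 14, replicates 1 and 3 had Xist and no Uty. Their Kdm6a levels were 4.80 FPKM, above every PBS library, and 1.73 FPKM, below every PBS library. The reason for these differences in Kdm6a was not tested. With a term for Y-linked transcripts in the fit, the log2 change of Kdm6a on day 9 against PBS was 0.01. Summed with Uty, Kdm6a stood at 4.89, 6.35 and 7.06 FPKM with PBS, at 7.21, 5.02 and 5.94 FPKM on day 9 and at 4.80, 3.13 and 1.73 FPKM on day 14, and the day 9 and PBS ranges overlapped.

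**Figure D4:**
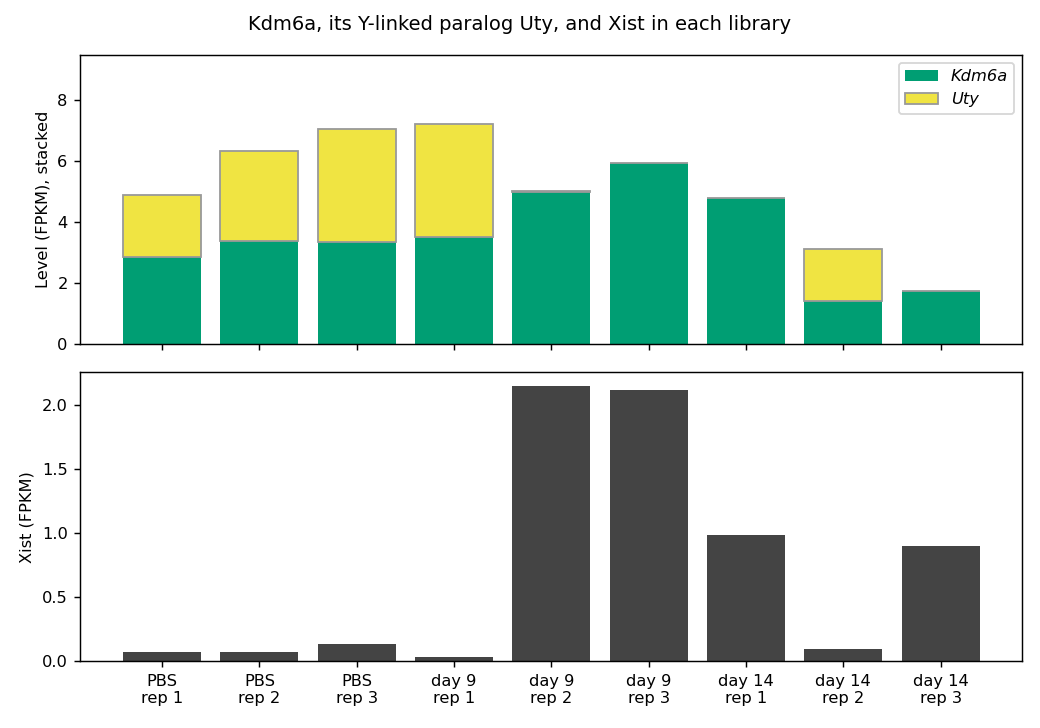
Top: stacked levels of Kdm6a and its Y-linked paralog Uty (FPKM) in each library. Bottom: Xist (FPKM), which was 0.897 to 2.15 in the 4 libraries where Uty was at or near 0 and at most 0.139 in the others.

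Between the time points, Eed and Rbbp7 rose and Phf1 fell, in a comparison that shares its day 14 libraries with the one against PBS. Of the 9 tested genes 3 (33.3%) passed, against 15.7% of all tested genes, with 5.71% of all genes higher and 9.98% lower. Eed had 27.8, 19 and 52.5 FPKM on day 14, against 8.35, 9.47 and 9.74 FPKM on day 9 (log2 change 1.84 ± 0.34, limma, adjusted p = 0.0193). Rbbp7 had 156, 95.6 and 116 FPKM on day 14, against 62.9, 46.2 and 35.7 FPKM on day 9 (log2 change 1.55 ± 0.27, adjusted p = 0.0178). Phf1 had 5.23, 6.69 and 1.98 FPKM on day 14, against 21.2, 22.4 and 27.5 FPKM on day 9 (log2 change -2.02 ± 0.36, adjusted p = 0.0112). For none of the 3 did the time points overlap.

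Because the time points did not overlap for these 3 genes, any split of the libraries had to show the same direction. The values by class of Y-linked transcripts are therefore a description. Where these were present, Eed had 19 FPKM in day 14 replicate 2 and 8.35 FPKM in day 9 replicate 1, Rbbp7 had 95.6 and 62.9 FPKM in the same libraries, and Phf1 had 6.69 and 21.2 FPKM. Where they were absent, Eed and Rbbp7 were higher and Phf1 lower in both day 14 libraries than in both day 9 libraries. With a term for these transcripts all 3 genes passed, among 1292 of the 9788 tested genes. After removal of the length and GC trend Phf1 passed and the adjusted p was 0.0548 for Eed and 0.0619 for Rbbp7. With only the groups compared in the fit, Phf1 passed and the adjusted p was 0.0668 for Eed and 0.0645 for Rbbp7. Leaving out a day 9 library also lost calls: Eed had an adjusted p of 0.0648, 0.0563 and 0.0596 without day 9 replicates 1, 2 and 3, and Rbbp7 one of 0.0556 and 0.0628 without replicates 2 and 3.

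Of the other genes, Ezh1 had 11.4, 11.5 and 12.1 FPKM on day 14, against 22.5, 15.3 and 20.9 FPKM on day 9. The time points did not overlap (log2 change -0.47 ± 0.23, limma, adjusted p = 0.0783). Over the alternatives its adjusted p ran from 0.0334, with all columns scaled to a common total, to 0.711. With that scaling 2225 of all tested genes passed, against 1536 in the main fit. For Ezh1, 0 of the 9 fits that left out 1 library passed. Day 14 and day 9 did not overlap for 4 of the 9 tested genes (44.4%), against 37.7% of all tested genes (13.2% higher and 24.6% lower). Kdm6a and Jarid2 passed once day 14 replicate 1 was left out, with log2 changes of -0.94 (limma, adjusted p = 0.0190) and -1.03 (adjusted p = 0.0238). In that fit 2124 of the 9788 tested genes passed. It was the only 1 of the 9 fits leaving out 1 library in which either gene passed. With that library the changes were -0.55 ± 0.36 (adjusted p = 0.164) and -0.51 ± 0.45 (adjusted p = 0.282). Kdm6b had a log2 change of 0.11 ± 0.30 (adjusted p = 0.829), and Ezh2 one of 1.57 ± 0.70 (adjusted p = 0.203).

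The other genes of the Polycomb system that passed the test are named here. Their counts stand beside the 17.1% of all tested genes that passed on day 14 against PBS and the 15.7% that passed against day 9. Of 7 further accessory subunits of PRC2, 3 passed the filter and none was called in any comparison (limma). Aebp2, which helps PRC2 bind DNA, had 31.9, 21.9 and 25.0 FPKM on day 14, against 21.6, 21.5 and 2.44 FPKM with PBS (log2 change 1.31 ± 0.68, adjusted p = 0.260). Mtf2, a paralog of Phf1, had 0.936, 2.54 and 1.59 FPKM on day 14, against 0.912, 0.823 and 0.933 FPKM with PBS. For Mtf2, day 14 replicate 1 lay hardly above the highest PBS library, and the gene did not pass (log2 change 0.61 ± 0.25, limma, adjusted p = 0.214).

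Of 27 subunits of Polycomb repressive complex 1, which binds the H3K27 mark and ubiquitinates histone H2A, 20 were tested and 1 was called on day 14 against PBS. It was Ring1, an H2A ubiquitin ligase, with 5.49, 13.0 and 8.02 FPKM on day 14, against 19.2, 20.5 and 27.5 FPKM with PBS. The groups did not overlap (log2 change -1.16 ± 0.31, limma, adjusted p = 0.0264). Against day 9, Ring1 (log2 change -1.09, adjusted p = 0.0281) and Rybp, a subunit of variant complexes (log2 change -1.0, adjusted p = 0.0340), fell. The median of the 20 was 0.04 on day 14 against PBS. Of 10 genes around the H2A deubiquitinase that opposes this complex, 8 were tested and its catalytic subunit Bap1 fell, with 19.1, 16.6 and 22.9 FPKM on day 14, against 42.1, 54.1 and 58.2 FPKM with PBS (log2 change -1.20 ± 0.23, adjusted p = 0.0117).

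Of genes for marks that oppose or border H3K27 methylation, 4 passed on day 14 against PBS, a count to be read against the same 17.1% of all tested genes, so nothing particular to these lists is drawn from it. Among 9 genes of H3K27 acetylation, 8 were tested with a median of 0.40, and the co-repressor Ncor1 and the deacetylase Hdac2 rose. Ncor1 had 19.3, 18.1 and 21 FPKM on day 14, against 8.46, 5.45 and 1.64 FPKM with PBS (log2 change 2.05 ± 0.43, limma, adjusted p = 0.0231). Hdac2 had 38.2, 36.9 and 27.5 FPKM on day 14, against 21.5, 16.2 and 12.0 FPKM with PBS (log2 change 1.17 ± 0.27, adjusted p = 0.0341). Both groups of libraries were apart for each gene, and both genes take acetyl groups off or recruit enzymes that do. Of 17 genes of H3K4 methyltransferase complexes, 13 were tested and Pagr1a rose (log2 change 0.95 ± 0.21, adjusted p = 0.0340), with a median of -0.10. Of 7 genes of H3K36 methylation, 5 were tested and the demethylase Kdm4a fell (log2 change -1.33 ± 0.33, adjusted p = 0.0221), with a median of -0.13. Against day 9, Mll3, an H3K4 methyltransferase also known as Kmt2c, fell by 0.50 on the log2 scale (adjusted p = 0.0395), and none of the acetylation or H3K36 genes passed. On day 9 against PBS no gene of these lists passed.

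**Figure D5:**
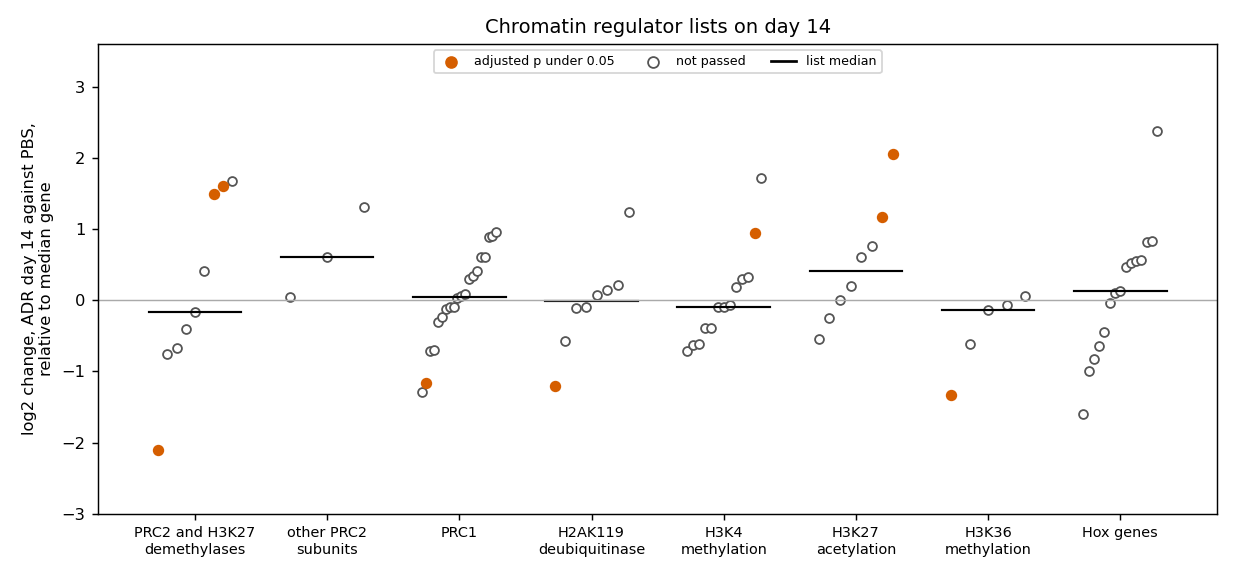
Log2 change on day 14 against PBS relative to the median gene (vertical axis) for each tested gene of 8 lists, with a bar at each list's median. Filled points passed limma's test: 3 of the 9 PRC2 and demethylase genes and 6 genes in the other lists.

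Typical Polycomb targets were counted last. Of 39 Hox genes, which PRC2 holds silent outside their domains, 15 were tested and 0 passed on day 14 against PBS (limma; 17.1% of all tested genes passed), with a median of 0.13. Hoxc8, Hoxd8 and Hoxd3 had an unadjusted p under 0.05 there. Hoxd3 fell on day 14 against day 9, with 1.08, 0.560 and 0.249 FPKM on day 14, against 2.18, 2.34 and 2.08 FPKM on day 9 (log2 change -0.79 ± 0.24, adjusted p = 0.0268). Of 31 other classical targets 1 was tested, Cdkn2b, an inhibitor of cell cycle kinases. It had 8.69, 1.08 and 1.03 FPKM on day 14, against 0.324, 0.234 and 0.352 FPKM with PBS. All day 14 libraries were higher, replicate 1 by far, and the test was missed (log2 change 1.55 ± 0.55, adjusted p = 0.107).

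The genes whose log2(FPKM + 1) values followed each catalytic or called gene most closely over the 9 libraries were ranked by Pearson's r as a description. The libraries share groups and depth, so high values are common. For Ezh2 they were Atox1 (0.986), the histone variant gene H2afz (0.986) and Leap2 (0.984). For Ezh1 they were Ap5b1 (0.991), Nrd1 (0.985) and Wdfy3 (0.981). Eed was most like Prdx6 (0.985), Sumo3 (0.985) and Hmgn1 (0.984), and Rbbp7 most like Sfxn1 (0.991), Alkbh6 (0.990) and Pop7 (0.989). Phf1 was most like Copz1 (0.992), Ppp2r1a (0.990) and Stk25 (0.988).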

How the data were processed

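The authors deposited 1 table of FPKM values with 23813 rows, 23309 symbols and a column per library. Per the submitters' processing notes the tools were Bowtie 0.12.7 and Cufflinks with build mm9. The Cufflinks version, annotation, strand and handling of reads with several matches were not given in the sources used here. Read counts were not used, so no counting interval is given. Columns headed control were matched to PBS by replicate number. Of 260 symbols on several rows, only the row of highest mean entered.

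Genes of 1 FPKM or more in 3 or more of the 9 libraries were tested with limma 3.58.1 (R 4.3.3), two-sided, with a variance trend, on log2(FPKM + 1), which understates changes of low genes. All 9 libraries entered 1 fit with group as the only term, and p-values were adjusted by Benjamini-Hochberg over the 9788 genes of each comparison. Ratios were compared by exact permutation. Depth was estimated from the most frequent ratio of values under 0.3 FPKM. Lengths came from GENCODE M21 (99.4% of tested genes matched), promoters from RefSeq GRCm38.p6, with no coordinates carried over to mm9. The genes and lists were chosen with earlier results of these data known. All 10 genes are named. Of each list up to 4 with the smallest p in a day 14 comparison could be named, and of those the called ones and a few others were chosen after their values were seen, as was Ccnb2. Alternatives covered pseudocounts, filters, scalings, variance models, thresholds, a replicate block, Y-linked transcripts, length and GC content, and left-out libraries.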

Additional observations from a re-analysis of the deposited data

Results flagged for a closer look

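The change between the time points differed from 0 for 3 genes, each tested as day 14 against day 9 in limma, which is the test of the difference between the 2 changes from the shared PBS libraries. Eed had a log2 difference of 1.84 (adjusted p = 0.0193), higher in 3 of 3 day 14 libraries than in every day 9 library. Rbbp7 had one of 1.55 (adjusted p = 0.0178), also higher in 3 of 3. Phf1 had one of -2.02 (adjusted p = 0.0112), lower in 3 of 3.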

How the results depend on the processing

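Eed and Rbbp7 stayed higher and Phf1 lower on day 14, against PBS and against day 9, under all 25 alternatives run for each gene and comparison. No called direction reversed, but not all alternatives could reverse one. Changed thresholds, the fit without the variance trend and the fit of only the groups compared left these estimates unchanged. With groups that did not overlap, leaving out 1 library could not reverse a difference before the median was subtracted. In leave-one-out fits the log2 change on day 14 against PBS ran from 1.22 to 1.92 for Eed (6 of 9 passed), from 1.32 to 1.63 for Rbbp7 (7 of 9) and from -2.40 to -1.70 for Phf1 (7 of 9). The number of the 9 genes called on day 14 against PBS, 3, became 0 at an adjusted p of 0.01, 0 with the term for Y-linked transcripts and 1 with the length and GC trend removed, and on day 14 against day 9, also 3, it became 0 at 0.01, 1 with the trend removed and 1 with only the groups compared. Leaving out 1 library gave 0 to 4 called against PBS and 1 to 5 against day 9. All genes called on day 14 against PBS, 1670, became 997 without a filter, 470 with only the groups compared, 2691 at 0.10, 112 at 0.01, 0 with the Y-linked term and 582 with the trend removed, and 0 to 1885 leaving out 1 library. Those on day 14 against day 9, 1536, became 881 without a filter, 262 with only the groups compared, 2673 at 0.10, 113 at 0.01 and 438 with the trend removed, and 381 to 2124 leaving out 1 library. On day 9 against PBS the count of 0 became 2 without a filter, 1 with only the groups compared and 0 to 1 leaving out 1 library. The causes were not tested. Where PBS replicate 2 was left out, 0 genes passed on day 14 against PBS and 2349 had an unadjusted p under 0.05 (limma).

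Whether replicate numbers pair the libraries is not stated in the labels. Correlations of same-numbered deviations ran from -0.265 to 0.431, and those of differently numbered ones from -0.523 to 0.458. With the replicate block, 0, 1301 and 1200 genes and 0, 3 and 3 of the 9 were called on day 9 against PBS, day 14 against PBS and day 14 against day 9. The pseudocount moved the day 14 against day 9 difference of the Ezh1 to Ezh2 ratio to -2.99 at 0.1 (exact permutation p = 0.2). With 3 libraries a group, the lowest depth on day 14 and no read counts used, no counting interval can be set on low levels such as those of Ezh2 and Suz12.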
